A study of Mus musculus with 12 samples.

Results

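The response of the liver to bacterial lipopolysaccharide (LPS) in mice without Tmprss6 was measured by setting 3 livers of LPS-injected Tmprss6 KO mice (KO LPS) against 3 livers of saline-injected Tmprss6 KO mice (untreated, KO UT). Every probe that was detected on at least 1 of these 6 arrays, at a detection p under 0.01, was taken, which gave 15863 of 45281 probes. With the brightest probe kept for each gene they formed 11291 features, 9118 named genes and 2173 probes without a name, of 11571 tested over the whole series of 12 livers. All 6 mice lacked Tmprss6, had a mixed 129/Ola × C57BL/6 strain background, ate an iron-replete diet for 3 weeks from the age of 4 weeks and were 7 weeks old when LPS from Escherichia coli (0.1 mg/kg) or saline was injected. Livers were taken 6 hours later and each was hybridized to an array of its own. Wild-type littermates kept on an iron-deficient diet for the same 3 weeks (IDA), again 3 with LPS and 3 with saline, served for comparison. Diet thus differed along with genotype between KO and IDA mice, and the 2 cannot be told apart.

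Tmprss6 encodes matriptase-2, a membrane protease of hepatocytes that cleaves the BMP co-receptor hemojuvelin and so holds down hepcidin, the hormone that closes the iron exporter ferroportin. Mice that lack it make much hepcidin and are anemic. LPS is sensed by Toll-like receptor 4, which signals through MYD88 to NF-kB and through TRIF to interferon regulatory factors. In the liver, Kupffer cells answer with cytokines, and hepatocytes then release acute-phase proteins under the control of interleukin-6, STAT3 and interleukin-1, while interferons switch on antiviral genes through a promoter element called the interferon-stimulated response element (ISRE).

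The liver label held: hepatocyte markers were detected in all 6 KO livers (summed linear level 205585, 198989 and 198071 in KO LPS livers and 229049, 213629 and 209220 in KO UT livers), and Tmprss6 itself was lower in every KO than in every IDA liver, with log2 intensities of 7.72, 7.82 and 7.90 in KO LPS and 8.39, 8.16 and 8.22 in KO UT livers, against 9.61, 10.46 and 9.43 in IDA LPS and 11.21, 10.29 and 10.39 in IDA UT livers. Its brightest probe was still detected in all KO livers, and whether this or the other kept probe lies in the deleted part of the gene is not given in the sources used here. From 13544 to 14423 probes were detected per KO LPS liver and from 12986 to 14334 per KO UT liver. The methods describe the KO mice as male, but Xist, the RNA that coats the inactive X chromosome, had log2 intensities of 5.19, 4.95 and 4.87 in KO LPS livers, against 12.05, 11.84 and 6.73 in KO UT livers. KO UT 1 and KO UT 2 were high, as in female tissue. KO UT 3 and all KO LPS livers were low, but Xist was still detected in KO UT 3 and in no KO LPS liver. Eif2s3y of the Y chromosome gave the mirror image, at 9.70, 10.16 and 9.77 in KO LPS livers, against 4.94, 4.80 and 9.68 in KO UT livers. IDA UT 1 was Xist-positive as well, at 11.93 for Xist and 4.83 for Eif2s3y, and no other IDA liver was. Sex thus moved along with treatment, with 2 of 3 KO UT livers and 1 of 3 IDA UT livers Xist-positive. For the KO response, counts of gene groups and calls of named genes that changed with an Xist term or without the Xist-positive livers (the Xist fits) are given beside the full fit.

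Promoters of the genes that the interferon results turn on are shown here, together with that of the hepcidin gene Hamp, whose level did not pass the test. Each is the RefSeq sequence (GRCm38.p6) from 250 bases before to 50 bases after a gene's start, 5′ to 3′ in the direction of the gene. Capitals mark matches to the ISRE (searched as GAAA, any 2 bases, GAAA), to the GAS element that STAT factors bind (TTC, any 3 bases, GAA) and to the kappa-B consensus of NF-kB, all searched on both strands.
Isg15, chr4:156200769-156201068, minus strand: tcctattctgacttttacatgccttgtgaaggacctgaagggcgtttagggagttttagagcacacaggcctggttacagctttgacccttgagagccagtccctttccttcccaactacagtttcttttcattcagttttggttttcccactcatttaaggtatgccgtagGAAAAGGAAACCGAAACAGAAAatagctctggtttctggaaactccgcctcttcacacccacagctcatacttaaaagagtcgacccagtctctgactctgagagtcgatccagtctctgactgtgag
Ifit3, chr19:34583279-34583578, plus strand: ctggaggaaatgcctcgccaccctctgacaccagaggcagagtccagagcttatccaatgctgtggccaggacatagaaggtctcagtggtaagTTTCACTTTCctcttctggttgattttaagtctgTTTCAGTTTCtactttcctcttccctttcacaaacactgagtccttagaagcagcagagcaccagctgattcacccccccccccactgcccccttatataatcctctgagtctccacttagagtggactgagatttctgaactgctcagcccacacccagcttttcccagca
Gbp2b, chr3:142594597-142594896, plus strand: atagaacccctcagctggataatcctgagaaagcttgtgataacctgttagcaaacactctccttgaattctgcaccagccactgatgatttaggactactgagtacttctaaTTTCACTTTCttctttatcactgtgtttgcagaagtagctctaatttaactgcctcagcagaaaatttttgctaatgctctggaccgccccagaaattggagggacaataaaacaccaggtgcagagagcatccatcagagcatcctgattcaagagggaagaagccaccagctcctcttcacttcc
Cxcl10, chr5:92348840-92349139, minus strand: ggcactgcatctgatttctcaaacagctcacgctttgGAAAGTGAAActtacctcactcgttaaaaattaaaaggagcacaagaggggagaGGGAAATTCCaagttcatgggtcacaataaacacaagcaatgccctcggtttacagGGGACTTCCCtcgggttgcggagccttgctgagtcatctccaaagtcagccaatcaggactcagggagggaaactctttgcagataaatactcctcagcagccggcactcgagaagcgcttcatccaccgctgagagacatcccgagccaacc
Hamp, chr7:30943980-30944279, minus strand: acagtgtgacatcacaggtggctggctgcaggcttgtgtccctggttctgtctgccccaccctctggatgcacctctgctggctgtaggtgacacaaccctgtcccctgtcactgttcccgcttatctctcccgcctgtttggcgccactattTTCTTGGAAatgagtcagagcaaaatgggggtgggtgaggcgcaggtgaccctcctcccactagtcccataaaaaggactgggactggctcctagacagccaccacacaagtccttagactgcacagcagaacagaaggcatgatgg

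Isg15 carried 3 overlapping ISRE matches, Ifit3 2, and Gbp2b and Cxcl10 1 each. Cxcl10 also held 2 kappa-B matches, and the capitals of Hamp are 1 GAS match. ISRE matches stood in 14.3% of 350 promoter windows of the genes called higher after LPS (47 of 283 genes), in 1.9% of 158 windows of genes called lower, in 3.28% of the 9532 windows of all measured genes and in 3.44% of all 32851 windows of the table. Among the measured type I interferon-stimulated genes they stood in 10 of 26 windows. GAS matches were found in 13.7, 5.06, 7.02 and 8.3% of the same 4 sets of windows, and kappa-B matches in 8.86, 7.59, 5.1 and 4.51%. A gene with several windows counts once for each, and a match describes letters, not a bound site.

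In KO LPS livers most measured genes of the acute-phase, interferon and chemokine groups were higher, and 10 of 21 genes of glucose output and glycogen and 8 of 16 hepatocyte transporters were lower. With the Xist term 6 of the 21 and 4 of the 16 were lower. With an adjusted p below 0.05 and a log2 ratio beyond 1 in either direction, 600 of 11291 features were called (5.31%), 416 of them higher (3.68%) and 184 lower (1.63%) in KO LPS livers. At the adjusted p alone, 1172 (10.4%) were higher and 990 (8.77%) lower, the rates against which the gene groups below are read. Measured genes of a group are those detected on at least 1 KO array, so that some entered only through the group in which they were high. The median log2 ratio over all features was -0.04, with the 10th percentile at -0.51 and the 90th at 0.54. Livers of the groups did not overlap in 598 of the 600 called features, against 37.4% of all features. Ratios come from a limma fit to the log2 intensities of all 12 arrays, with Benjamini-Hochberg adjustment, and are given ± standard error (SE).

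The 3 LPS-treated KO livers did not move equally far. KO LPS 1 reached a median of 83.9% of the mean response over the 416 features called higher, against 111.8% for KO LPS 2 and 104.3% for KO LPS 3, and lay nearest to the untreated livers in 324 of the 416. Among the 184 features called lower the medians were 81.7, 109.0 and 112.1%. Without KO LPS 1, 737 features were called. In the gene groups below the counts without KO LPS 1 differed from the full ones by at most 3 genes in a direction, apart from the histone genes.

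**Figure D1:**
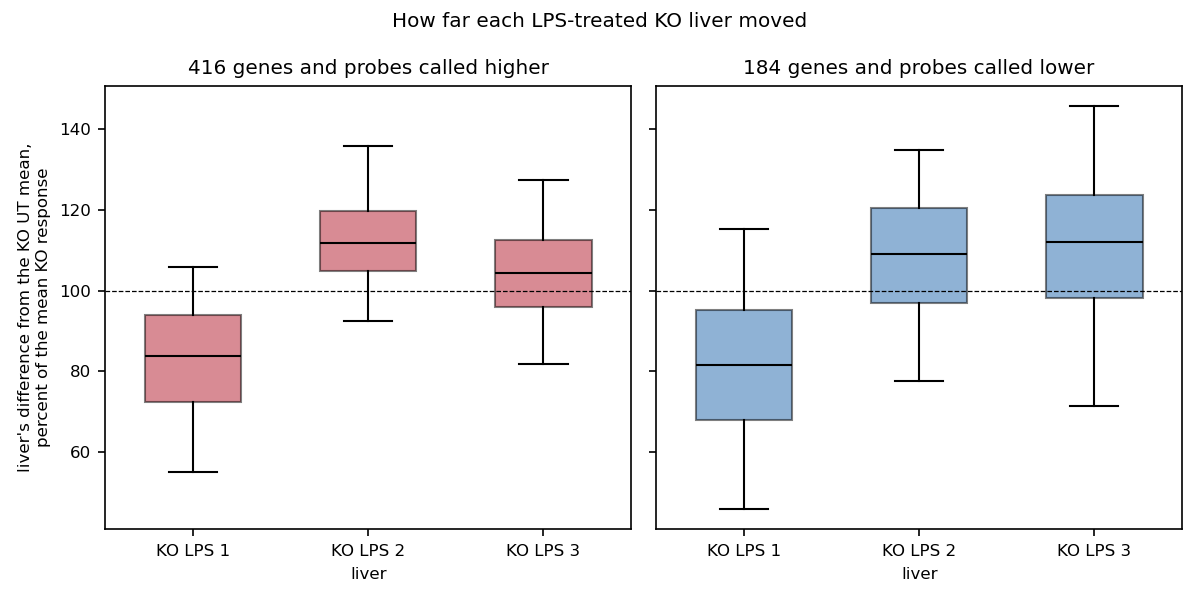
Difference of each LPS-treated KO liver from the mean of the 3 KO UT livers, in percent of the mean KO response, over the 416 features called higher and the 184 called lower. Boxes span the middle quartiles over features, whiskers the 5th to the 95th percentile and the dashed line 100%. KO LPS 1 has the lowest median in both panels, at 83.9 and 81.7%.

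Acute-phase genes gave the largest increases. Saa3, a serum amyloid A of macrophages and hepatocytes, had log2 intensities of 14.52, 15.27 and 15.63 in KO LPS livers, against 7.94, 7.07 and 6.86 in KO UT livers. Lcn2, which encodes lipocalin 2, a protein that captures bacterial iron carriers, stood at 15.44, 15.85 and 15.68 in KO LPS livers, against 9.97, 8.05 and 8.64 in KO UT livers, and Saa1, a serum amyloid A of hepatocytes, at 15.94, 15.996 and 15.98 in KO LPS livers, against 10.38, 10.46 and 10.75 in KO UT livers. For these 3 genes every KO LPS liver lay far above every KO UT liver, and KO LPS 1 was the lowest of its group. The log2 ratios were 7.85 ± 0.34 (SE, adjusted p = 2.16e-07) for Saa3, 6.77 ± 0.42 (SE, adjusted p = 1.35e-06) for Lcn2 and 5.44 ± 0.19 (SE, adjusted p = 4.95e-08) for Saa1. Saa1 lay at 95.2 to 97.1% of an array's highest signal in KO LPS livers, near the top of the range that an array can show.

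Saa2, the close relative of Saa1, was detected in all KO LPS livers and in no KO UT liver and was at least 55.8-fold higher. Orm2, an orosomucoid, had a log2 ratio of 4.50 ± 0.21 (SE, adjusted p = 2.16e-07), and Lbp, the LPS-binding protein that hands LPS to its receptor, one of 2.28 ± 0.17 (SE, adjusted p = 6.08e-06). Hp, encoding haptoglobin, had a smaller ratio of 0.74 (adjusted p = 0.00452) on a probe that lay at 93.5 to 100% of the array's highest signal in KO LPS livers and at 49.0 to 69.5% in KO UT livers, the top of the measurable range, and 2 other Hp probes gave 1.21 and 1.22. Of 22 measured genes of positive acute-phase proteins, 19 passed as higher, 0 as lower and 3 missed the threshold (median log2 ratio 1.65, or 1.40 with undetected livers at the lowest detected level). The count was 19 with a term for Xist and 18 without the Xist-positive livers.

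Plasma proteins known to fall in inflammation did not pass at this time point. Of 18 measured, 0 passed as higher, 0 as lower and 18 missed the threshold (median log2 ratio -0.07), among them Ttr, transthyretin, at 0.00 (adjusted p = 0.992) and Rbp4, retinol-binding protein, at -0.23 (adjusted p = 0.294).

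**Figure D2:**
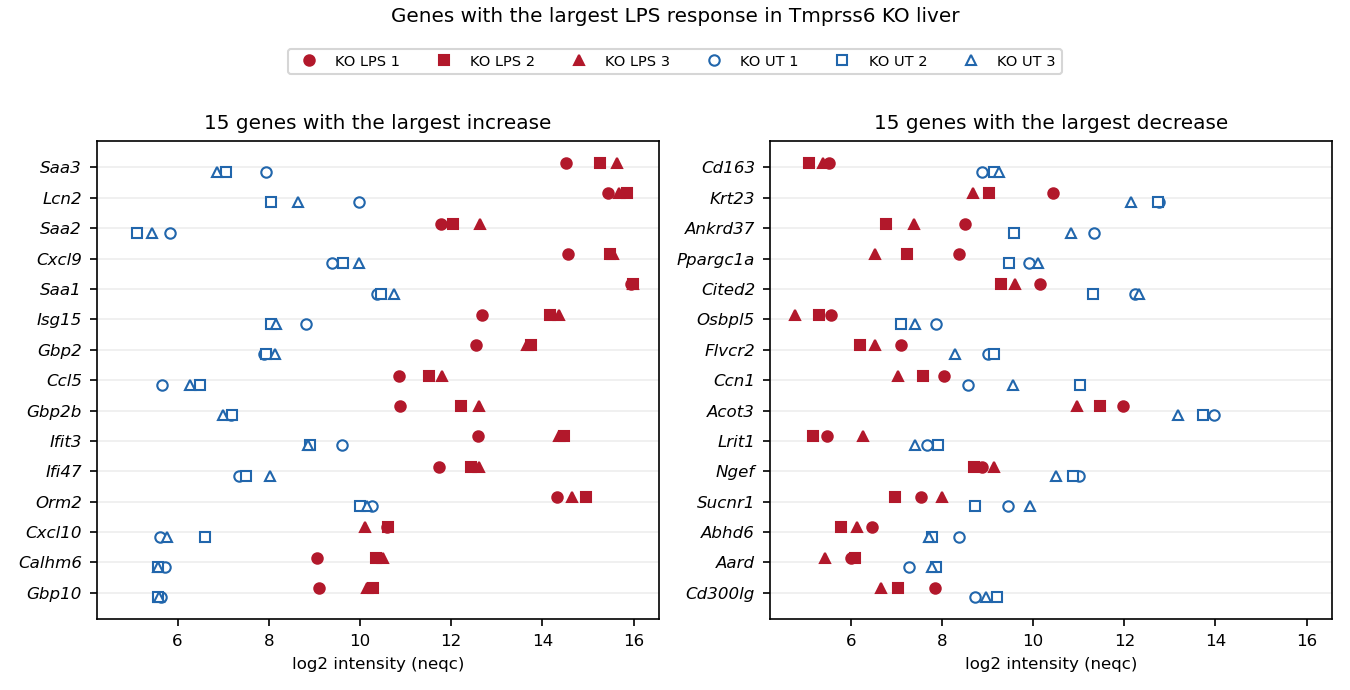
Log2 intensity of the 15 genes with the largest increase and the 15 with the largest decrease by fitted ratio, also where a group was below detection, one point per liver, filled for KO LPS and open for KO UT livers. The groups are apart in all 30 genes. Saa3 spans 14.52 to 15.63 in KO LPS livers, and Cd163 is below detection there, at 5.09 to 5.52.

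Interferon-stimulated genes rose together. Isg15, a ubiquitin-like protein conjugated to other proteins during antiviral defence, stood at 12.68, 14.17 and 14.36 in KO LPS livers, against 8.83, 8.05 and 8.17 in KO UT livers, and Ifit3, which binds viral RNA with its IFIT partners, at 12.59, 14.47 and 14.36 in KO LPS livers, against 9.60, 8.90 and 8.86 in KO UT livers. Rsad2, the antiviral enzyme viperin, stood at 10.83, 13.12 and 12.30 in KO LPS livers, against 9.16, 8.56 and 8.67 in KO UT livers. In all 3 genes KO LPS 1 was the lowest treated liver, by over 1 log2 unit, and still lay above every untreated liver. The log2 ratios were 5.39 ± 0.36 (SE, adjusted p = 2.87e-06), 4.68 ± 0.40 (SE, adjusted p = 1.64e-05) and 3.28 ± 0.44 (SE, adjusted p = 0.000406). Cmpk2, a mitochondrial nucleotide kinase, rose by 4.19 (adjusted p = 2.43e-05), and Ifit2, a relative of Ifit3, by 4.02 (adjusted p = 0.000628).

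Of 30 measured type I interferon-stimulated genes, 28 passed as higher, 0 as lower and 2 missed the threshold (median log2 ratio 1.85), among those that passed Irf7, the transcription factor that amplifies interferon production, at 3.05 (adjusted p = 1.83e-05). With the Xist term, or without the Xist-positive livers, 26 were higher. Genes of the large GTPases that attack vacuoles holding microbes, which answer interferon-gamma, went the same way. Gbp2, a guanylate-binding protein, stood at 12.55, 13.75 and 13.67 in KO LPS livers, against 7.90, 7.94 and 8.14 in KO UT livers, which gave a log2 ratio of 5.33 ± 0.25 (SE, adjusted p = 2.16e-07). Ifi47, an immunity-related GTPase, rose by 4.64 (adjusted p = 2.37e-07) and Gbp3 by 3.79 (adjusted p = 1.84e-05). Gbp10 was detected in no KO UT liver and was at least 11.3-fold higher in KO LPS livers, and Calhm6, a channel protein of activated macrophages, at least 12.3-fold. Of 15 measured interferon-gamma-inducible genes, 13 passed as higher, 0 as lower and 2 missed the threshold (median log2 ratio 2.32), while 13 were higher and 0 lower with the Xist term, and 12 higher and 0 lower without the Xist-positive livers.

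The machinery that cuts and loads peptides for MHC class I rose as well. Psmb8, a catalytic subunit of the immunoproteasome, stood at 11.84, 12.57 and 12.70 in KO LPS livers, against 9.88, 9.68 and 10.09 in KO UT livers. All treated livers lay clear of the untreated ones, with a log2 ratio of 2.49 ± 0.20 (SE, adjusted p = 1.04e-05). The partner subunits Psmb9 and Psmb10 rose by 2.45 (adjusted p = 6.84e-05) and 2.02 (adjusted p = 1.55e-05), and Tap1, the peptide transporter of the endoplasmic reticulum, by 2.06 (adjusted p = 1.84e-05). Of 16 measured genes of this group, 14 passed as higher, 0 as lower and 2 missed the threshold (median log2 ratio 1.00), with 13 higher under the Xist term and 7 higher without the Xist-positive livers. MHC class II genes did not pass: of 10 measured, 0 passed as higher, 0 as lower and 10 missed the threshold (median log2 ratio 0.08, or 0.05 with undetected livers at the lowest detected level), and 1 passed as higher with the Xist term.

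Chemokines that draw T cells and monocytes rose in all treated KO livers. Cxcl9, an interferon-gamma-induced ligand of CXCR3, stood at 14.56, 15.48 and 15.55 in KO LPS livers, against 9.39, 9.64 and 9.98 in KO UT livers, and Ccl5, a chemokine of T cells, at 10.87, 11.52 and 11.79 in KO LPS livers, against 5.65, 6.50 and 6.27 in KO UT livers. Neither gene overlapped between groups, and the log2 ratios were 5.52 ± 0.30 (SE, adjusted p = 4.98e-07) and 5.25 ± 0.25 (SE, adjusted p = 2.16e-07), although Ccl5 was detected in 1 of 3 KO UT livers only. Cxcl10, a relative of Cxcl9, rose by 4.43 (adjusted p = 7.37e-06) and was likewise detected in 1 of 3 KO UT livers. Cxcl13, which draws B cells, Ccl7 and Ccl2, both of which draw monocytes, were detected in no KO UT liver and were at least 8.95-fold, 5.46-fold and 2.74-fold higher.

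Neutrophil chemokines moved less and less evenly. Cxcl1 stood at 12.11, 12.57 and 11.66 in KO LPS livers, against 8.47, 11.17 and 8.81 in KO UT livers. KO UT 2 lay near the treated livers and far above the other untreated ones, and the log2 ratio was 2.63 ± 0.56 (SE, adjusted p = 0.00721). Cxcl2 was detected in KO LPS 1 and KO LPS 2 and in no other KO liver, at 7.30, 6.56 and 5.54 in KO LPS livers, against 4.73, 5.29 and 4.90 in KO UT livers, and was at least 1.08-fold higher. Its fitted difference passed in the full fit (adjusted p = 0.0186) but not with the Xist term (adjusted p = 0.0747), without the Xist-positive livers (adjusted p = 0.172) or without KO UT 1, KO UT 3, KO LPS 1 or KO LPS 2 (adjusted p = 0.0625, 0.0533, 0.0525 and 0.0639). The other Cxcl2 probe, at a log2 ratio of 0.98, did not pass. Of 11 CXC chemokines listed 7 were measured, and of these 6 passed as higher, 0 as lower and 1 missed the threshold (median log2 ratio 2.63). Of 18 CC chemokines listed 12 were measured, and of these 8 passed as higher, 0 as lower and 4 missed the threshold (median log2 ratio 1.74, or 1.38 with undetected livers at the lowest detected level). Cxcl2, Cxcl13, Ccl7 and Ccl2 counted as measured only through KO LPS livers. With no detection filter the 18 CC chemokines had a median of 0.28, with 8 higher and 0 lower. With the Xist term 5 CXC and 8 CC chemokines were higher, and without the Xist-positive livers 5 and 7.

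Markers of neutrophils and their precursors rose beside these chemokines. Of 15 markers listed 6 were measured, and of these 5 passed as higher, 0 as lower and 1 missed the threshold (median log2 ratio 2.20, or 1.31 with undetected livers at the lowest detected level), with 4 higher under the Xist term and 4 without the Xist-positive livers. Their summed linear level was 3780, 8818 and 7892 in KO LPS livers and 993, 1308 and 885 in KO UT livers. S100a8 and S100a9, the subunits of calprotectin, rose by 2.88 (adjusted p = 0.00206) and 2.75 (adjusted p = 0.00269), and Prtn3, proteinase 3 of neutrophil granules, was detected in no KO UT liver and was at least 3.06-fold higher. Cxcr2 and Ltf, among the listed markers that were not measured, were below detection on all 6 KO arrays, and none of 13 markers of T and NK cells was measured. In whole liver, more cells of a type and more RNA per cell cannot be told apart, and the part of arriving cells in the chemokine and interferon results was not tested.

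Several receptors and brakes of LPS signalling rose. Tlr2, the receptor for bacterial lipoproteins, stood at 9.98, 10.93 and 10.70 in KO LPS livers, against 6.68, 7.37 and 7.15 in KO UT livers, and Cd14, the co-receptor of LPS, at 10.81, 11.95 and 11.86 in KO LPS livers, against 7.45, 8.15 and 8.15 in KO UT livers. Irak3, an inhibitor of the receptor complex, stood at 9.61, 10.44 and 10.67 in KO LPS livers, against 6.54, 6.79 and 6.47 in KO UT livers. Treated and untreated livers were apart for each of these, by log2 ratios of 3.47 ± 0.26 (SE, adjusted p = 6.85e-06), 3.62 ± 0.38 (SE, adjusted p = 7.65e-05) and 3.64 ± 0.22 (SE, adjusted p = 1.21e-06). Myd88, the shared adaptor of the receptors, rose by 1.19 (adjusted p = 2.62e-05). Of 16 measured genes of LPS sensing, 7 passed as higher, 0 as lower and 9 missed the threshold (median log2 ratio 0.48, or 0.46 with undetected livers at the lowest detected level).

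NF-kB targets rose in part. Icam1, the adhesion molecule that stops leukocytes on endothelium, stood at 10.94, 11.30 and 10.88 in KO LPS livers, against 8.98, 9.22 and 9.06 in KO UT livers, a log2 ratio of 1.95 ± 0.14 (SE, adjusted p = 4.05e-06), with the 6 livers in tight, separate groups. Tnip1, a partner of the inhibitor A20, rose by 1.36 (adjusted p = 1.58e-05) and Tnfaip2 by 1.47 (adjusted p = 0.00699), which did not pass with the Xist term (adjusted p = 0.0633) or without the Xist-positive livers (adjusted p = 0.0864). Tnfaip3, which encodes A20, did not pass at 0.81 (adjusted p = 0.06), but did at 1.15 with the Xist term (adjusted p = 0.0321) and with only the 6 KO arrays (adjusted p = 0.0199). The atypical inhibitor Nfkbiz did not pass, at 0.34 (adjusted p = 0.266). Nfkbia, the classical inhibitor, chosen here after its value was seen, stood at -0.00 (adjusted p = 0.99). Of 15 measured subunits, inhibitors and brakes, 7 passed as higher, 0 as lower and 8 missed the threshold (median log2 ratio 0.70, or 0.34 with undetected livers at the lowest detected level), while 6 were higher and 0 lower with the Xist term, and 3 higher and 0 lower without the Xist-positive livers.

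Of 10 genes of the interleukin-1 family, 3 passed as higher, 0 as lower and 7 missed the threshold (median log2 ratio 0.25, or 0.10 with undetected livers at the lowest detected level). Those 3 were Il1b, encoding the cytokine itself, at 2.80 (adjusted p = 0.00021), its decoy ligand Il1rn at 2.30 (adjusted p = 0.000634) and Casp1, the protease that matures it, at 1.09 (adjusted p = 0.00204). On the interleukin-6 side, 6 passed as higher, 1 as lower and 7 missed the threshold (median log2 ratio 0.36, or 0.30 with undetected livers at the lowest detected level) of 14 measured, while 4 were higher and 1 lower with the Xist term, and 3 higher and 0 lower without the Xist-positive livers. Socs3, the feedback inhibitor of STAT3, stood at 9.84, 10.11 and 9.97 in KO LPS livers, against 7.57, 8.81 and 7.57 in KO UT livers, with KO UT 2 highest among untreated livers, and gave a log2 ratio of 1.99 ± 0.41 (SE, adjusted p = 0.00543). Stat3 and Il6st, the shared receptor chain gp130, rose by 1.24 (adjusted p = 6.27e-05) and 0.96 (adjusted p = 0.000482). Cish, a feedback inhibitor of STAT5, did not pass at -0.50 (adjusted p = 0.247).

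Several genes of the unfolded protein and integrated stress responses rose. Creld2, a secreted chaperone induced by misfolded protein, stood at 12.06, 12.85 and 12.36 in KO LPS livers, against 9.37, 9.27 and 9.46 in KO UT livers, without overlap and with a log2 ratio of 3.06 ± 0.20 (SE, adjusted p = 2.37e-06). Sdf2l1, part of an endoplasmic reticulum chaperone complex, rose by 2.63 (adjusted p = 2.62e-05), and Syvn1, the ubiquitin ligase of misfolded proteins, by 1.62 (adjusted p = 1.55e-05). Chac1, a glutathione-degrading enzyme induced by ATF4, rose by 2.84 (adjusted p = 0.000263). Of 26 measured genes of the unfolded protein and integrated stress responses, 14 passed as higher, 2 as lower and 10 missed the threshold (median log2 ratio 0.78, or 0.73 with undetected livers at the lowest detected level), while 12 were higher and 1 lower with the Xist term, and 9 higher and 1 lower without the Xist-positive livers.

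**Figure D3:**
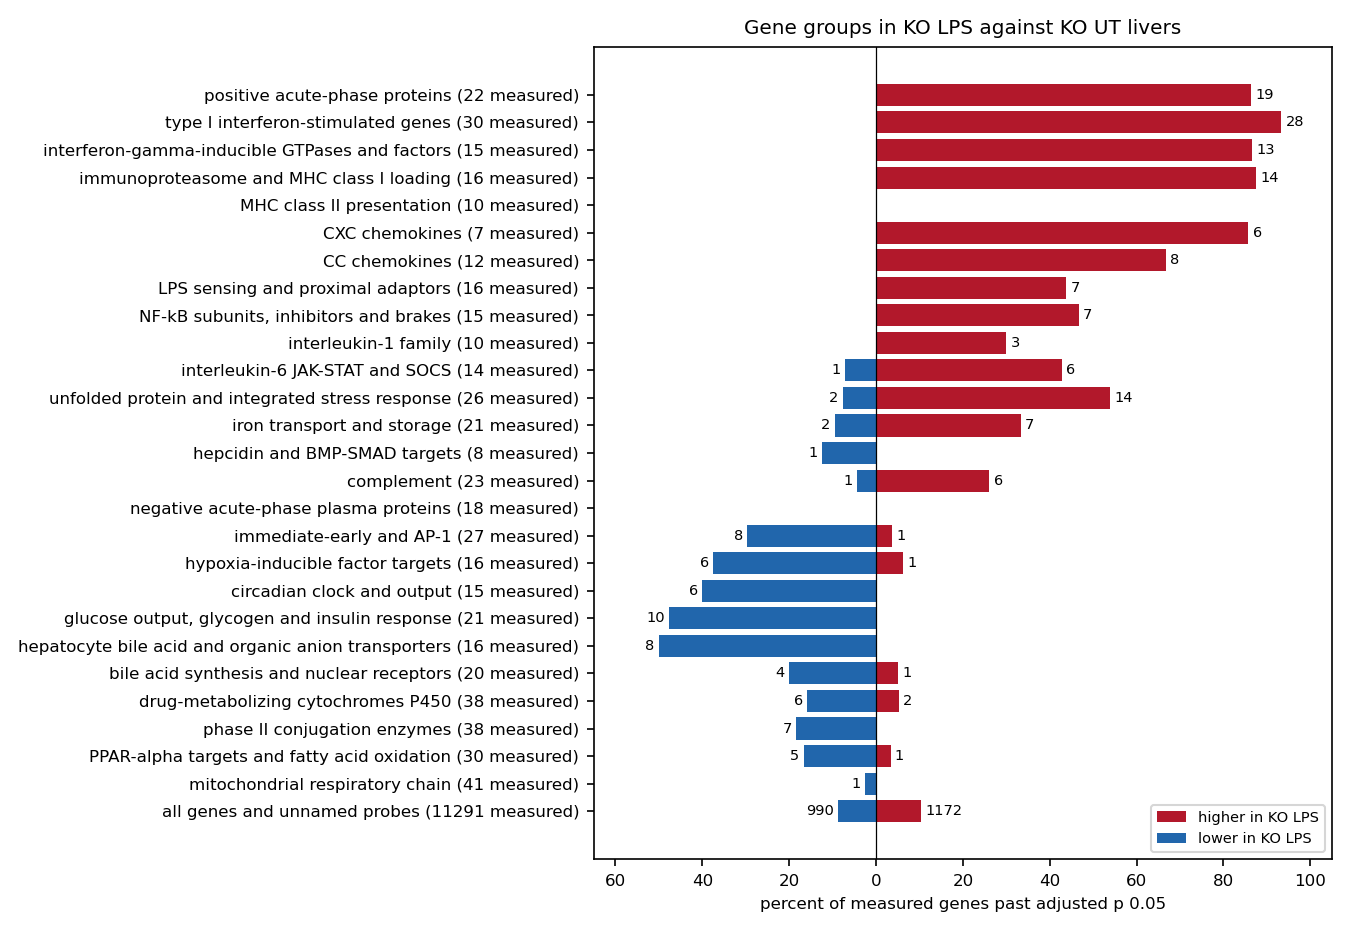
Percent of the measured genes of each group that passed an adjusted p of 0.05, to the right where higher and to the left where lower in KO LPS livers, with counts beside the bars. The lowest bar is all 11291 features, 1172 higher and 990 lower. Interferon, acute-phase and chemokine groups reach far beyond it on the right, and transport and glucose groups on the left.

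Among genes that fell was Cd163, the macrophage receptor that takes up haptoglobin bound to hemoglobin. It stood at 5.52, 5.09 and 5.38 in KO LPS livers, against 8.87, 9.14 and 9.26 in KO UT livers, was detected in no KO LPS liver and was at least 7.05-fold lower. Vsig4, a complement receptor of Kupffer cells, stood at 8.998, 9.70 and 9.37 in KO LPS livers, against 10.99, 10.89 and 10.81 in KO UT livers and fell by a log2 ratio of -1.54 ± 0.21 (SE, adjusted p = 0.000506). Marco, a scavenger receptor of the same cells, moved the other way, at 10.05, 10.56 and 10.29 in KO LPS livers, against 7.75, 7.50 and 7.17 in KO UT livers, a log2 ratio of 2.83 ± 0.24 (SE, adjusted p = 1.67e-05). In each gene all treated livers lay on one side of the untreated ones. Of 13 measured Kupffer cell and macrophage markers, 3 passed as higher, 3 as lower and 7 missed the threshold (median log2 ratio -0.22), and their summed linear level was 8076, 13116 and 10135 in KO LPS livers and 9846, 10045 and 10181 in KO UT livers, which overlapped. In the Xist fits 3 were higher and 2 lower with the Xist term, and 2 higher and 2 lower without the Xist-positive livers.

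Part of the endothelial markers fell. Oit3, a protein of liver sinusoidal endothelium, stood at 8.73, 8.96 and 8.64 in KO LPS livers, against 9.86, 9.93 and 9.68 in KO UT livers, and Clec4g, a lectin of the same cells, at 11.93, 11.94 and 11.83 in KO LPS livers, against 12.75, 13.08 and 12.65 in KO UT livers. Both fell in every treated liver relative to every untreated liver, by log2 ratios of -1.05 ± 0.15 (SE, adjusted p = 0.00059) and -0.93 ± 0.20 (SE, adjusted p = 0.00788). Of 14 measured markers, 0 passed as higher, 5 as lower and 9 missed the threshold (median log2 ratio -0.51), and the summed linear level was 10132, 10697 and 9521 in KO LPS livers and 14354, 17017 and 14745 in KO UT livers, without overlap. Clec4g did not pass with the Xist term (adjusted p = 0.0551) or without the Xist-positive livers (adjusted p = 0.191). Of the markers, 4 were lower with that term and 2 without those livers. Of 9 measured hepatocyte markers, 0 passed as higher, 1 as lower and 8 missed the threshold (median log2 ratio -0.18), with 3 lower without KO LPS 1 and 0 in either Xist fit, and none of the 10 stellate cell and 6 erythroid markers passed.

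Part of the genes of glucose output and glycogen fell. Ppargc1a, the coactivator that drives gluconeogenesis and mitochondrial genes in fasting, stood at 8.38, 7.23 and 6.53 in KO LPS livers, against 9.90, 9.47 and 10.10 in KO UT livers. All treated livers lay below all untreated ones, KO LPS 3 lowest, and the log2 ratio was -2.45 ± 0.38 (SE, adjusted p = 0.00111). Slc2a2, the glucose transporter GLUT2 of hepatocytes, stood at 11.95, 11.76 and 11.36 in KO LPS livers, against 13.01, 13.09 and 12.88 in KO UT livers and fell by a log2 ratio of -1.30 ± 0.17 (SE, adjusted p = 0.000279). Gbe1, the glycogen branching enzyme, had a log2 ratio of -1.61 (adjusted p = 0.00459), with 1 of 3 KO LPS livers detecting it, and Igfbp1, an insulin-suppressed binding protein of IGF, one of -1.48 (adjusted p = 0.00579), which missed the threshold without the Xist-positive livers (adjusted p = 0.052). Of 21 measured genes of the group, 0 passed as higher, 10 as lower and 11 missed the threshold (median log2 ratio -0.55), with 6 lower under the Xist term and 5 without the Xist-positive livers.

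Part of the transporters of bile acids, sterols and organic anions fell as well. Abcg5, which with Abcg8 forms the pump that moves sterols into bile, stood at 12.80, 12.74 and 12.82 in KO LPS livers, against 13.63, 13.63 and 13.67 in KO UT livers, and Abcg8 at 11.61, 10.79 and 11.51 in KO LPS livers, against 12.80, 12.85 and 12.69 in KO UT livers. In both genes the KO UT livers lay close together and all KO LPS livers below them, with log2 ratios of -0.86 ± 0.09 (SE, adjusted p = 0.000106) and -1.47 ± 0.19 (SE, adjusted p = 0.000338). Slco1a4, an uptake carrier of organic anions, was at -1.13 (adjusted p = 0.0017) and missed the threshold without the Xist-positive livers (adjusted p = 0.0878). Of 16 measured transporters, 0 passed as higher, 8 as lower and 8 missed the threshold (median log2 ratio -0.46), but 4 were lower with the Xist term and 2 without the Xist-positive livers.

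Klb, the co-receptor of FGF21 and FGF15 that restrains bile acid synthesis, stood at 8.60, 8.53 and 8.24 in KO LPS livers, against 9.78, 10.13 and 10.02 in KO UT livers, with a log2 ratio of -1.52 ± 0.15 (SE, adjusted p = 4.82e-05). Nr1i3 and Nr1i2, the xenobiotic receptors CAR and PXR, were at -0.95 (adjusted p = 0.0081) and -0.70 (adjusted p = 0.00388), and Nr1h3, the oxysterol receptor LXR-alpha, was higher, at 0.54 (adjusted p = 0.00758). Without the Xist-positive livers these 3 did not pass (adjusted p = 0.322, 0.0921 and 0.0916), nor did Nr1i3 with the Xist term (adjusted p = 0.0764). Cyp7a1, which catalyses the limiting step of bile acid synthesis, did not differ beyond the spread of the livers, at 12.28, 12.28 and 10.43 in KO LPS livers, against 12.44, 12.56 and 10.94 in KO UT livers and -0.31 (adjusted p = 0.768); KO LPS 3 and KO UT 3 were the lowest of their groups. Of 20 measured genes of bile acid synthesis and nuclear receptors, 1 passed as higher, 4 as lower and 15 missed the threshold (median log2 ratio -0.22), while 1 was higher and 3 lower with the Xist term, and 0 higher and 1 lower without the Xist-positive livers.

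Some drug-metabolizing enzymes passed, mostly as lower, and the counts were smaller in the Xist fits. Over all features, 8.77% passed as lower in the full fit. Of 38 measured cytochromes P450, 2 passed as higher, 6 as lower and 30 missed the threshold (median log2 ratio -0.33), 0 were higher and 2 lower with the Xist term and 0 in either direction without the Xist-positive livers, and without KO LPS 1 0 were higher and 4 lower. Cyp2a5 and Cyp4f15, which hydroxylate coumarin and long-chain fatty acids in mice, had log2 ratios of -0.82 (adjusted p = 0.00352) and -0.88 (adjusted p = 0.00147), and neither passed without the Xist-positive livers (adjusted p = 0.144 and 0.0726). Of 38 phase II enzymes, 0 passed as higher, 7 as lower and 31 missed the threshold (median log2 ratio -0.26), and 2 were lower with the Xist term and 1 without the Xist-positive livers. Ugt2a3, a glucuronosyltransferase, stood at 8.84, 8.50 and 8.45 in KO LPS livers, against 9.84, 9.64 and 9.69 in KO UT livers, without overlap, and gave a log2 ratio of -1.13 ± 0.14 (SE, adjusted p = 0.000278). It still passed without the Xist-positive livers, at -1.10 (adjusted p = 0.0207), whereas the sulfotransferase gene Sult1d1, at -1.20 (adjusted p = 0.0036), did not (adjusted p = 0.0975).

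Of 30 measured targets of PPAR-alpha, the fatty acid receptor of hepatocytes, 1 passed as higher, 5 as lower and 24 missed the threshold (median log2 ratio -0.17), and 8 were lower without KO LPS 1. In the Xist fits 1 was higher and 4 lower with the Xist term, and 0 higher and 1 lower without the Xist-positive livers. Acot3, a peroxisomal thioesterase, stood at 11.98, 11.46 and 10.95 in KO LPS livers, against 13.96, 13.73 and 13.18 in KO UT livers and fell by a log2 ratio of -2.16 ± 0.40 (SE, adjusted p = 0.00304), and Hadha, of mitochondrial beta-oxidation, by -1.13 (adjusted p = 0.00623). Fgf21, a fasting hormone of the liver, was the gene that rose, at 1.51 (adjusted p = 0.00559). Without the Xist-positive livers none of the 3 passed (adjusted p = 0.0678, 0.116 and 0.0869). Of 41 measured genes of the respiratory chain, 0 passed as higher, 1 as lower and 40 missed the threshold (median log2 ratio -0.11), against 8.77% of all features that were lower, and 0 passed in either Xist fit.

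Part of the immediate-early genes, which are induced within minutes of a stimulus, were lower 6 hours after LPS. Maff, a small MAF transcription factor, stood at 7.44, 6.87 and 7.27 in KO LPS livers, against 8.54, 8.80 and 9.07 in KO UT livers, and Dusp6, a phosphatase that switches off ERK, at 12.43, 12.18 and 12.12 in KO LPS livers, against 13.39, 13.58 and 13.34 in KO UT livers. Neither overlapped, and the log2 ratios were -1.61 ± 0.17 (SE, adjusted p = 9.47e-05) and -1.20 ± 0.19 (SE, adjusted p = 0.00135). Klf4 was detected in no KO LPS liver and 2 of 3 KO UT livers and was at least 1.21-fold lower, and missed the threshold without the Xist-positive livers (adjusted p = 0.0514). Ccn1, a matricellular protein, stood at 8.04, 7.58 and 7.03 in KO LPS livers, against 8.56, 11.03 and 9.56 in KO UT livers, with KO UT 2 far above the other livers, and its log2 ratio of -2.17 (adjusted p = 0.0143) no longer passed without KO LPS 3 (adjusted p = 0.0586) or with the Xist term (adjusted p = 0.108). Of 27 measured genes, 1 passed as higher, 8 as lower and 18 missed the threshold (median log2 ratio -0.85, or -0.62 with undetected livers at the lowest detected level), while 0 were higher and 4 lower with the Xist term, and 0 higher and 5 lower without the Xist-positive livers. KO UT 2 was the highest untreated liver in 16 of the 27 and KO UT 1 the lowest in 22, and the count was 6 lower without KO UT 2, 11 without KO UT 1 and 4 without KO LPS 3.

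Part of the hypoxia and clock genes fell. Ankrd37, a target of hypoxia-inducible factor, stood at 8.51, 6.77 and 7.38 in KO LPS livers, against 11.33, 9.58 and 10.83 in KO UT livers, and Cited2, which restrains that factor, at 10.15, 9.30 and 9.61 in KO LPS livers, against 12.23, 11.30 and 12.32 in KO UT livers. Each KO LPS liver lay below each KO UT liver, and the log2 ratios were -3.03 ± 0.51 (SE, adjusted p = 0.00181) and -2.27 ± 0.31 (SE, adjusted p = 0.000506). Aldoa, a glycolytic aldolase, was at -0.95 (adjusted p = 0.00138), and Ndrg1 at -0.86 (adjusted p = 0.00686). Of 16 measured hypoxia-inducible factor targets, 1 passed as higher, 6 as lower and 9 missed the threshold (median log2 ratio -0.38), while 0 were higher and 5 lower with the Xist term, and 0 higher and 4 lower without the Xist-positive livers. Among 15 clock and clock output genes, 0 passed as higher, 6 as lower and 9 missed the threshold (median log2 ratio -0.50), while 3 were lower with the Xist term and 2 without the Xist-positive livers. The ubiquitin protease Usp2, a rhythmic gene, was at -1.14 (adjusted p = 0.0045) and at -0.76 without the Xist-positive livers (adjusted p = 0.172).

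Other genes with large decreases belonged to none of the groups. Krt23, a keratin, stood at 10.45, 9.03 and 8.68 in KO LPS livers, against 12.77, 12.74 and 12.15 in KO UT livers, and Sucnr1, the receptor for succinate, at 7.54, 6.98 and 8.002 in KO LPS livers, against 9.45, 8.72 and 9.92 in KO UT livers. Flvcr2, a choline transporter of the FLVCR family, stood at 7.10, 6.21 and 6.54 in KO LPS livers, against 9.02, 9.14 and 8.28 in KO UT livers. Untreated livers were higher throughout, and the log2 ratios were -3.17 ± 0.40 (SE, adjusted p = 0.000279), -1.86 ± 0.34 (SE, adjusted p = 0.00276) and -2.19 ± 0.26 (SE, adjusted p = 0.000156). Osbpl5, a lipid transfer protein, and Lrit1 were detected in no KO LPS liver and were at least 2.27-fold and 2.63-fold lower.

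The hepcidin gene did not pass the test in KO livers. Hamp stood at 15.64, 15.59 and 15.81 in KO LPS livers, against 15.75, 15.59 and 15.76 in KO UT livers, a log2 ratio of -0.02 ± 0.71 (SE, adjusted p = 0.989), and the groups overlapped. The standard error pools the spread of all 4 groups, of which the KO livers had little. With the Xist term Hamp was at -1.20 (adjusted p = 0.281). Its signal was 76.0 to 78.4% of the array's highest in KO LPS livers and 79.4 to 87.1% in KO UT livers, near the top of the range that an array can show. Hamp2, its paralog, stood at 14.84, 15.06 and 14.14 in KO LPS livers, against 15.58, 15.65 and 15.50 in KO UT livers. Each treated liver lay below each untreated one, yet the log2 ratio of -0.90 did not pass (adjusted p = 0.141). It passed with only the 6 KO arrays (adjusted p = 0.0379) and without IDA UT 3 (adjusted p = 0.0247), but not with the Xist term (adjusted p = 0.104). Of 8 measured hepcidin and BMP-SMAD target genes, 0 passed as higher, 1 as lower and 7 missed the threshold (median log2 ratio -0.34, or -0.20 with undetected livers at the lowest detected level), and of 13 regulators and receptors, 1 passed as higher, 0 as lower and 12 missed the threshold (median log2 ratio 0.00), with 0 passing without the Xist-positive livers.

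Iron transporters moved in both directions. Slc11a2, the iron importer DMT1, stood at 10.60, 10.63 and 10.92 in KO LPS livers, against 9.47, 8.44 and 9.07 in KO UT livers, without overlap. It rose by a log2 ratio of 1.72 ± 0.21 (SE, adjusted p = 0.000248). Of its 2 other probes, at 0.48 and 2.15, 1 passed. Slc11a1, the transporter of phagosomes, rose by 0.90 (adjusted p = 0.000864), and Slc39a14, the hepatocyte importer ZIP14, by 0.76 (adjusted p = 0.00367). The other Slc39a14 probe was at 0.46 and did not pass. Steap4, a metalloreductase, was detected in no KO UT liver and was at least 1.22-fold higher. Slc40a1, which encodes ferroportin, stood at 12.38, 12.91 and 12.78 in KO LPS livers, against 13.10, 13.79 and 13.56 in KO UT livers. Each treated liver lay below each untreated one, yet the log2 ratio of -0.79 ± 0.26 (SE, adjusted p = 0.0508) narrowly missed the threshold. It passed under several alternatives, among them the authors' intensities (adjusted p = 0.0313) and only the 6 KO arrays (adjusted p = 0.0452), but not with the Xist term (adjusted p = 0.126). Of 21 measured genes of iron transport and storage, 7 passed as higher, 2 as lower and 12 missed the threshold (median log2 ratio -0.12), Lcn2 being one of those that rose. In the Xist fits 6 were higher and 1 lower with the Xist term, and 5 higher and 0 lower without the Xist-positive livers, and Slc39a14 fell short once the Xist-positive livers were left out (adjusted p = 0.118).

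Female-biased liver genes had a negative median ratio, whose size depended on how Xist was handled. Of 13 measured, 0 passed as higher, 4 as lower and 9 missed the threshold (median log2 ratio -1.09, or -1.04 with undetected livers at the lowest detected level). Once Xist was a term in the fit 1 was lower and the median was -0.05, but the median was -0.68 without the Xist-positive livers. In IDA livers, where 1 of 3 untreated livers was Xist-positive, 6 passed as lower (median log2 ratio -2.25). The part of sex in these falls was not tested. Cux2, a transcription factor of female liver, stood at 7.82, 7.93 and 7.10 in KO LPS livers, against 9.68, 9.36 and 8.80 in KO UT livers, a log2 ratio of -1.66 (adjusted p = 0.0122). It no longer passed with the Xist term (adjusted p = 0.0685), without KO LPS 3 (adjusted p = 0.053) or as the mean of its probes, at -0.70 (adjusted p = 0.0609). Its 2 other probes were at -0.44 and 0.007, and neither passed. Among 18 male-biased genes, 1 passed as higher, 0 as lower and 17 missed the threshold (median log2 ratio 0.23), and 0 passed in either Xist fit. Over all features, 776 were higher and 566 lower at the adjusted p with the Xist term, and 492 and 321 without the Xist-positive livers, in fits with fewer livers or degrees of freedom. Without the Xist-positive livers KO UT 3 alone stood for its group, and its spread was taken from the other groups. With the Xist term, the counts of acute-phase, interferon-stimulated, interferon-gamma-inducible and chemokine genes fell by at most 2. Lower counts fell from 10 to 6 for glucose, 8 to 4 for transport, 7 to 2 for phase II and 6 to 2 for P450 genes. Higher counts of complement genes fell from 6 to 3, and lower counts over all features from 990 to 566. Without the Xist-positive livers, counts fell in induced groups too, among them the immunoproteasome, NF-kB and unfolded protein groups.

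To ask where the KO response differed from that of iron-deficient wild-type mice, the difference of the 2 responses was tested in the same fit. The untreated groups were unlike in Xist: 2 of 3 KO UT and 1 of 3 IDA UT livers were Xist-positive, and none of the LPS-treated livers was. With the Xist term 606 differences were called (312 above and 294 below 0), against 589 in the full fit. The single differences below come from the full fit only. The genes called in KO livers were mostly called in IDA livers too: 356 of the 416 higher features, which is 85.6% of them and 40% of the 890 called higher in IDA livers, and 127 of the 184 lower ones, 69% of them and 14.2% of the 894 called lower in IDA livers. The ratio was smaller in KO than in IDA livers for 310 of the 416, with medians of 1.49 in KO and 2.14 in IDA livers, and for 115 of the 184, with medians of -1.24 in KO and -1.53 in IDA livers. The difference itself passed for 112 of the 416, 99 of them smaller and 13 larger in KO livers, and for 56 of the 184, 37 smaller and 19 larger. Over all features 10.7% passed, 5.54% above 0 and 5.16% below, and 5.22% were also beyond a log2 difference of 1, 2.59% above and 2.62% below. In IDA livers 15.8% of features were called, 7.88% higher and 7.92% lower, and 21.5% passed the adjusted p alone as higher and 26.2% as lower.

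**Figure D4:**
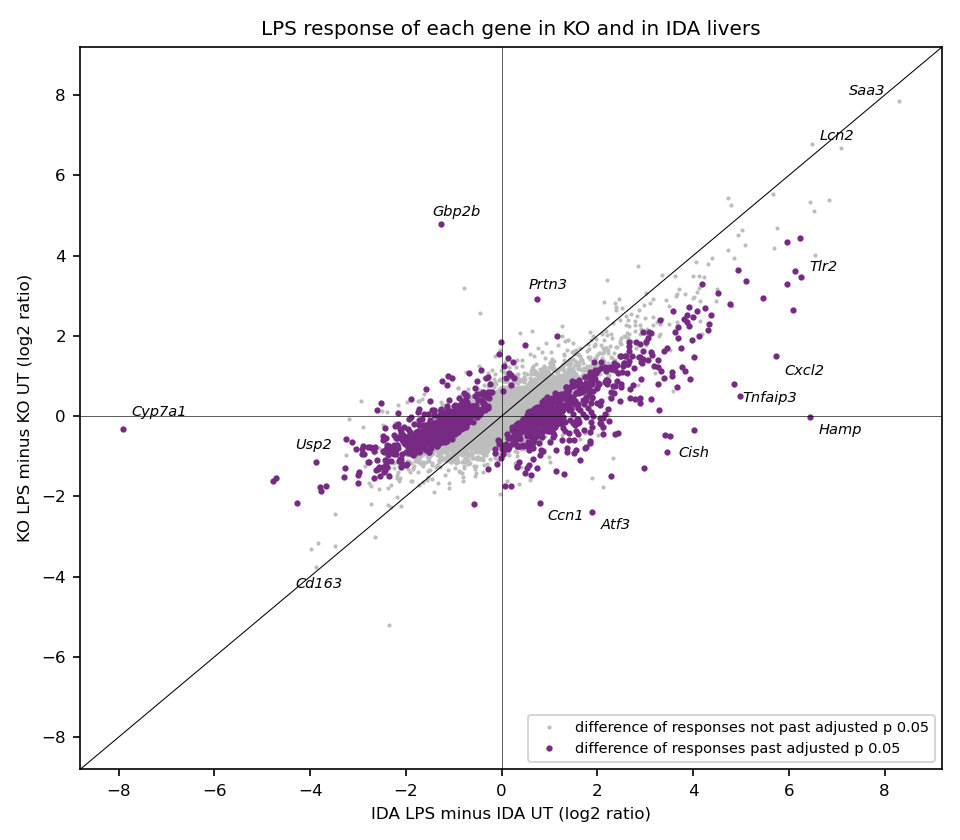
Log2 ratio of LPS-treated over untreated livers for each of the 11291 features, in KO livers on the vertical and in IDA livers on the horizontal axis, with features whose responses differed past an adjusted p of 0.05 in purple. Hamp lies at 6.45 in IDA and at -0.02 in KO livers, Cyp7a1 at -7.91 and -0.31, and Gbp2b, which no LPS-treated IDA liver detected, at -1.28 and 4.78.

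The difference passed for 1 of the 22 acute-phase genes, which responded less in KO livers. Differences of Saa3 and Lcn2 were -0.45 (adjusted p = 0.602) and 0.30 (adjusted p = 0.796), but their probes lay at 81.6% or more and 91.1% or more of the array's highest signal in IDA LPS livers, near the top of the measurable range. Of 30 type I interferon-stimulated genes, 7 responded less in KO livers and none more, Rsad2 by -2.68 (adjusted p = 0.0202), and the median ratio was 1.85 in KO and 2.87 in IDA livers. Of 15 genes of the NF-kB group 11 responded less and 1 more: Tnfaip3 reached 0.81 in KO and 4.86 in IDA livers, a difference of -4.05 ± 0.39 (SE, adjusted p = 0.000593), and Nfkbiz 0.34 and 2.90, a difference of -2.56 ± 0.28 (SE, adjusted p = 0.000636). Tlr2, Cd14 and Icam1 responded less by -2.78 (adjusted p = 0.00171), -2.51 (adjusted p = 0.0149) and -1.74 (adjusted p = 0.000656), and the neutrophil chemokines Cxcl1 and Cxcl2 by -3.45 (adjusted p = 0.02) and -4.25 (adjusted p = 0.00137), although no untreated liver of either kind detected Cxcl2.

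The median response of immediate-early genes had opposite signs in the groups. It was -0.85 in KO and 0.79 in IDA livers, and 11 of 27 differed, all with a lower ratio in KO livers, among them Jun of the AP-1 complex, at -0.62 in KO and 1.85 in IDA livers, a difference of -2.47 ± 0.44 (SE, adjusted p = 0.00621). Untreated levels differed too: Jun had a mean of 10.18 in KO UT and 8.03 in IDA UT livers, but 9.56 in KO LPS and 9.87 in IDA LPS livers. Ccn1 had means of 9.72 in KO UT and 5.66 in IDA UT livers, and 7.55 in KO LPS and 6.45 in IDA LPS livers. A lower ratio in KO livers is thus not in itself a lower level after LPS. Cish was at -0.50 in KO and 3.52 in IDA livers, a difference of -4.01 ± 0.39 (SE, adjusted p = 0.000593). Of 10 MHC class II genes, 0 passed in KO and 7 fell in IDA livers, the medians were 0.08 in KO and -0.88 in IDA livers, and for 7 of the 10 the difference passed. Of the 26 genes of the unfolded protein and integrated stress responses, 12 responded less in KO livers and 0 more, Creld2 by -1.46 (adjusted p = 0.0098).

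**Figure D5:**
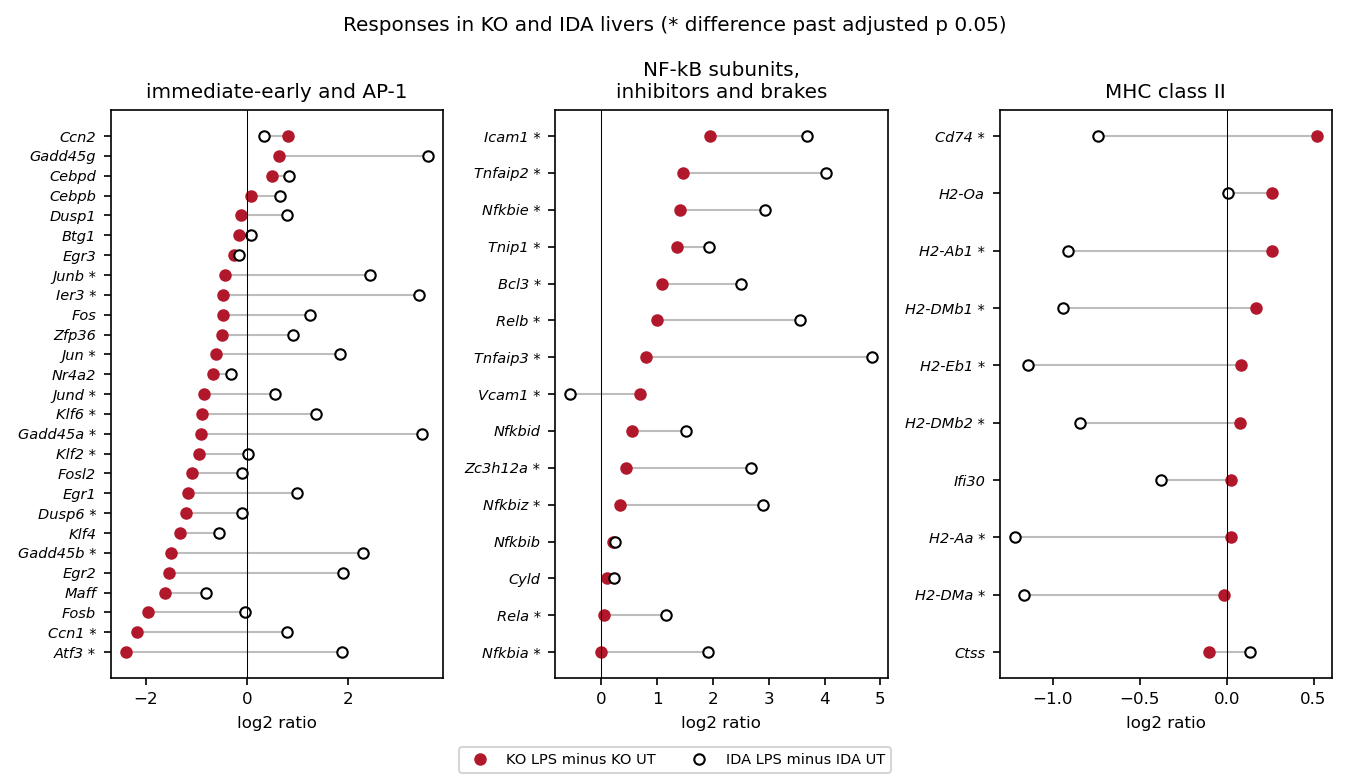
Log2 ratios of LPS-treated over untreated livers in KO (filled) and IDA livers (open) for 3 gene groups, with a star where the difference passed an adjusted p of 0.05. NF-kB and immediate-early genes lie further left in KO livers for most members, and MHC class II genes lie near 0 in KO and mostly between -1.22 and -0.38 in IDA livers.

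A few genes set the groups apart by much more. Hamp stood at 13.82, 13.77 and 13.49 in IDA LPS and 4.94, 7.88 and 8.91 in IDA UT livers, a log2 ratio of 6.45, and the difference of the responses was -6.47 ± 1.004 (SE, adjusted p = 0.00338). Its size is limited on both sides, since all KO livers lay near the top of the measurable range and 2 of 3 IDA UT livers detected Hamp. Cyp7a1 stood at 6.92, 5.49 and 5.05 in IDA LPS livers, of which 1 of 3 detected it, and at 13.66, 13.33 and 14.21 in IDA UT livers. Its difference, which rests in part on levels below detection, was 7.60 ± 0.86 (SE, adjusted p = 0.000683). Gbp2b, a guanylate-binding protein formerly named Gbp1 in mice, stood at 10.88, 12.22 and 12.61 in KO LPS livers, against 7.17, 7.19 and 7.01 in KO UT livers, a log2 ratio of 4.78 ± 0.40 (SE, adjusted p = 1.55e-05). In IDA livers it stood at 5.35, 5.70 and 6.41 after LPS, detected in none of 3, and at 7.44, 7.28 and 6.57 in IDA UT livers, and the difference, which rests in part on levels below detection, was 6.06 ± 0.57 (SE, adjusted p = 0.000593), although its neighbour in the family Gbp2 responded in both, with a difference of -1.12 (adjusted p = 0.0678).

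Further differences lay among genes that fell in IDA livers. Slc2a2 and Klb fell less in KO livers, by 1.98 (adjusted p = 0.000835) and 1.77 (adjusted p = 0.000994), as did Usp2 and Nr1i3, by 2.74 (adjusted p = 0.000769) and 1.97 (adjusted p = 0.00282). Slc40a1 of ferroportin, which missed the threshold in KO livers, was at -0.79 in KO and -2.71 in IDA livers, a difference of 1.92 ± 0.36 (SE, adjusted p = 0.00811). Prtn3 was detected in KO LPS livers and in none of the other groups, so that its difference of 2.18 (adjusted p = 0.000593) sets them against levels below detection.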

How the data were processed

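Livers of 12 mice, 3 in each of 4 groups, were hybridized by the authors to Illumina mouse BeadChips and read with GenomeStudio, whose version is not given in the sources used here. The authors deposited average bead intensities that were not normalized, each with a detection p-value computed by the authors' software from negative control beads, and normalized intensities (cubic spline). The deposited detection p-values set which probes were kept, and 0 columns per sample were left unused. Depth does not apply to arrays, and 3 livers per group limit the precision.

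Intensities were background-corrected, quantile-normalized and log2-transformed with neqc (limma 3.58.1, R 4.3.3, offset 16). The 4 group means were fitted with limma to all 12 arrays, with empirical Bayes moderation, and Benjamini-Hochberg adjustment over 11571 features, those detected on at least 1 of 12 arrays. Of 45281 probes, 34885 had 1 gene symbol, 18 several and 10378 none. "At least" folds set a gene that no array of a group detected to the lowest detected level of each of its arrays, or to the gene's own level where higher, and average these over the group. Promoters came from RefSeq. Figures were drawn with matplotlib 3.10.9 (Python 3.11.15).

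The gene groups and their members were chosen with earlier results of these data known, and several hold genes that the study names, so that counts are descriptions. Genes were named by rule: the 15 largest increases and decreases, the 4 largest passing members of each list, genes the study names, and the 8 largest differences in each direction. The text gives part of these, preferring, after the values were seen, genes that passed whichever liver was left out. Alternatives were the authors' intensities, other background correction and scaling, other filters, probe means, only KO arrays, a replicate block (statmod 1.5.0), other moderation and adjustment, and leaving out each liver. A term for Xist and leaving out the Xist-positive livers were tried too. Counts for gene groups under alternatives were an addition made once the data had been seen. Simulated data with known changes were used to check the scripts. Which BeadChip held which liver is not given in the sources used here, so that chips were not tested as batches.

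Replicate numbers did not pair KO livers: the correlation of deviations was 0.03, 0.14 and 0.11 for numbers 1 to 3. Nothing says that same-numbered mice were related.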

Additional observations from a re-analysis of the deposited data

Results flagged for a closer look

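For 42 of the 108 genes named, the LPS response differed between KO and IDA livers by the test of the difference itself (limma, adjusted p under 0.05), 28 with a lower and 14 with a higher log2 ratio in KO livers. Over all features 10.7% passed this test. No explanation was tested for any of them. Differences of Gbp2b, Calhm6, Prtn3, Steap4, Cxcl2, Sucnr1 and Ccn1 rest in part on a group in which no liver detected the gene.

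The named genes were picked in part from inflammatory lists and by the size of the difference, so that their makeup is no result. Below 0, in the Toll-like receptor and NF-kB groups the differences, KO minus IDA, were -4.05 for Tnfaip3, -2.78 for Tlr2, -2.56 for Nfkbiz, -2.56 for Tnfaip2, -2.51 for Cd14, -1.74 for Icam1, -1.30 for Irak3, -1.03 for Myd88 and -0.58 for Tnip1. Among cytokines, chemokines and their signalling genes they were -4.25 for Cxcl2, -4.01 for Cish, -3.45 for Cxcl1, -2.03 for Il1rn, -1.97 for Il1b and -1.80 for Cxcl10. Interferon-induced genes gave -2.68 for Rsad2 and -1.62 for Calhm6.

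Genes of the unfolded protein and integrated stress responses gave -1.46 for Sdf2l1, -1.46 for Creld2 and -1.34 for Syvn1. Immediate-early genes gave -2.96 for Ccn1, -2.47 for Jun and -1.09 for Dusp6. The others below 0 were Hamp at -6.47, Igfbp1 at -2.10, Steap4 at -1.17, Col4a1 at -0.74 and Slc39a14 at -0.71.

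Above 0 stood 12 genes that passed as lower in IDA livers and had a ratio nearer 0 in KO livers. Cyp7a1 at 7.60 and Slc40a1 at 1.92 did not pass in KO livers. The others passed as lower there too: Usp2 at 2.74, Acot3 at 2.13, Slc2a2 at 1.98, Nr1i3 at 1.97, Sucnr1 at 1.92, Klb at 1.77, Clec4g at 1.36, Klkb1 at 1.17, Vsig4 at 1.13 and Slco1a4 at 0.97. Gbp2b at 6.06 rose in KO livers and had a negative ratio in IDA livers, and Prtn3 at 2.18 was detected in KO LPS livers only.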

How the results depend on the processing

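Of 600 features called in KO livers, 320 were called (244 higher, 76 lower) with the authors' normalized intensities and 321 (244 and 77) without background correction, and 2162 passed without the fold threshold. For the difference of responses the 589 called (293 above and 296 below 0) became 321 with the authors' intensities (115 and 206) and 321 without background correction (118 and 203), 345 above and 237 below 0 with median scaling, and 1208 without the fold threshold. Leaving out 1 liver gave 501 to 737 calls in KO livers, the extremes being without KO LPS 2 and without KO LPS 1, and 460 to 643 for the difference, without IDA LPS 3 and without IDA UT 1. With the replicate block 604 were called (416 higher, 188 lower), and 564 for the difference. Numbers did not pair the livers.

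With a term for Xist 599 were called (407 higher, 192 lower) and 522 without the Xist-positive livers. The sign turned for 2 genes that did not pass, Hamp, at -0.02, and Cyp7a1, at -0.31. Hamp was at 0.021 with median scaling and at -1.20 with the Xist term (adjusted p = 0.281). When 1 liver was left out, Hamp was at -0.084 (without KO LPS 3) to 0.025 (without KO LPS 2). Cyp7a1 was at 0.17 with the Xist term and 0.73 without the Xist-positive livers. When 1 liver was left out, Cyp7a1 was at -0.83 (without KO UT 3) to 0.30 (without KO LPS 3). Of 97 named genes that passed, 75 passed in the same direction under every alternative run. Dim genes limit the precision, since their level in undetected livers is only a bound. The causes of these shifts were not tested.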

Other observations

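Some complement and matrix genes passed after LPS in KO livers, and fewer did in the Xist fits. Over all features, 10.4% passed as higher and 8.77% as lower in the full fit. Of 23 measured complement genes, 6 passed as higher, 1 as lower and 16 missed the threshold (median log2 ratio 0.21), but 3 were higher and 1 lower with the Xist term, and 0 higher and 1 lower without the Xist-positive livers. Serping1, the inhibitor of the first complement component, stood at 14.46, 14.59 and 14.79 in KO LPS livers, against 13.90, 13.88 and 14.04 in KO UT livers, without overlap, and rose by 0.67 (adjusted p = 0.00204) but missed the threshold without the Xist-positive livers (adjusted p = 0.0886). Masp1, a protease of the lectin pathway, stood at 11.34, 11.11 and 11.16 in KO LPS livers, against 11.64, 11.99 and 12.27 in KO UT livers, a log2 ratio of -0.77 ± 0.15 (SE, adjusted p = 0.00451) on its brightest probe. Its 2 other probes were at -0.25 and -0.005 and did not pass, nor did the mean of its probes, at -0.34 (adjusted p = 0.059). Of 25 measured genes of extracellular matrix, 5 passed as higher, 1 as lower and 19 missed the threshold (median log2 ratio 0.06, or 0.05 with undetected livers at the lowest detected level), while 3 were higher and 0 lower with the Xist term, and 1 higher and 0 lower without the Xist-positive livers. Timp1, an inhibitor of matrix proteases, was detected in no KO UT liver and was at least 5.02-fold higher in KO LPS livers, and Col4a1, a chain of basement membrane collagen, rose by 0.80 (adjusted p = 0.00225), or 0.48 without the Xist-positive livers (adjusted p = 0.0968).

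Clotting factors mostly did not pass. Of 26 measured genes of coagulation and fibrinolysis, 2 passed as higher, 4 as lower and 20 missed the threshold (median log2 ratio -0.04), 2 were lower without KO LPS 1, and 1 were higher and 1 lower with the Xist term, and 1 higher and 1 lower without the Xist-positive livers. Klkb1, plasma prekallikrein, stood at 11.35, 11.41 and 11.56 in KO LPS livers, against 12.06, 12.24 and 12.13 in KO UT livers, with a log2 ratio of -0.71 ± 0.11 (SE, adjusted p = 0.00125). Replication-dependent histone genes, whose transcripts lack a poly(A) tail, separated KO from IDA livers: of 26 measured, 4 passed as higher, 0 as lower and 22 missed the threshold (median log2 ratio -0.08, or -0.05 with undetected livers at the lowest detected level) in KO livers, 4 were higher and 4 lower without KO LPS 1, and 0 were higher without the Xist-positive livers, whereas 21 were higher in IDA livers, and for 10 the response was smaller in KO livers by the test of the difference. The authors made cDNA with an oligo(dT) primer, which pairs with poly(A) tails, and how far it captured histone transcripts was not tested. Of 17 cell cycle genes, 0 passed as higher, 1 as lower and 16 missed the threshold (median log2 ratio -0.08, or -0.11 with undetected livers at the lowest detected level), with 0 lower under the Xist term.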
